A study of Mus musculus with 8 samples.

Results

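Complement is a group of 8 genes here, of 25572 in the deposited table: C1qa, C1qb and C1qc, which encode the chains of C1q, C3, Cfb and Cfp of the alternative pathway, and C3ar1 and C5ar1, the receptors of the anaphylatoxins C3a and C5a. The members were chosen by symbol, with earlier results of these data known. All 8 were in the table, and all 8 passed the filter on low counts. They were measured by RNA sequencing in neutrophils that had been sorted by flow cytometry from PyMT-N tumours grown in mice of a strain given as C57/B6. The sort was on ICAM1, also called CD54, an adhesion molecule that binds beta-2 integrins. There were 4 CD54-positive libraries, the ICAM1-high cells of the series design, and 4 CD54-negative libraries, the ICAM1-low cells. Both groups came from tumours and no untreated or tumour-free group was analysed here. The sources used here do not give the age and sex of the mice, the gates or the nature of PyMT-N. The libraries were numbered 1, 2, 3 and 5 in each group, and each was made from 150 pg of total RNA with an amplifying kit. The labels do not state whether a group's libraries are from different mice; p-values therefore measure only the spread between these libraries, which may be technical.

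Complement is a cascade of plasma and tissue proteins that tag particles for uptake and call in leukocytes. C1q binds antibody complexes and dying cells and starts the classical pathway. C3 is the protein on which all pathways converge, factor B (Cfb) supplies the protease of the alternative pathway convertase, and properdin (Cfp) stabilises that convertase. Cleavage of C3 and C5 releases the peptides C3a and C5a, which act on C3ar1 and C5ar1 of myeloid cells. Most plasma complement is made in the liver, whereas C1q is largely made by macrophages and dendritic cells, properdin by myeloid cells including neutrophils, and C5ar1 is a classic chemoattractant receptor of neutrophils.

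The promoters of the 3 genes below that rose and have an entry in the RefSeq promoter table, and of C5ar1, the other anaphylatoxin receptor, are shown for comparison of their upstream letters. Each is the 250 bases before the RefSeq start of the gene, on GRCm38.p6, read 5′ to 3′ on the gene's strand, which is the minus strand for all 4 genes. The windows are chr4:136886201-136886450 for C1qb, chr4:136892915-136893164 for C1qc, chr6:122856158-122856407 for C3ar1 and chr7:16259339-16259588 for C5ar1. Capitals mark matches, on either strand, to short motifs.
C1qb: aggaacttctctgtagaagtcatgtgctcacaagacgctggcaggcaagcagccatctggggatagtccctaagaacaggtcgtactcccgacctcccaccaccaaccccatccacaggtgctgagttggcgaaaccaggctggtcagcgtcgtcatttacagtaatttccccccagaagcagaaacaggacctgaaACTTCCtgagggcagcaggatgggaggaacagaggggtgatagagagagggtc
C1qc: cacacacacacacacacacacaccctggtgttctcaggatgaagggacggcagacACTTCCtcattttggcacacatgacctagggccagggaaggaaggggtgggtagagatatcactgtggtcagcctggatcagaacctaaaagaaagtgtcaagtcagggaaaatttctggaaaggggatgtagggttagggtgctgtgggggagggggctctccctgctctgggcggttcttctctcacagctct
C3ar1: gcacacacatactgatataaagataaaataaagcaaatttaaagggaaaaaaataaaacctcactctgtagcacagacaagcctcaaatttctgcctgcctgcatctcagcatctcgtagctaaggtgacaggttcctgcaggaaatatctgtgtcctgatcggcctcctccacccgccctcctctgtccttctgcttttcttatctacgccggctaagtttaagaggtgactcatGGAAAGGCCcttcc
C5ar1: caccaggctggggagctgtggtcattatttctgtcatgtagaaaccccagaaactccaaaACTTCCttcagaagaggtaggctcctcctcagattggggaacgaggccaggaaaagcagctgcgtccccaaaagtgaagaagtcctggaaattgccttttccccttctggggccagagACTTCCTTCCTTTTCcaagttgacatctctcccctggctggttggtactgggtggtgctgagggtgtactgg
Promoters were found for 6 of the 8 members, all except C1qa and Cfb, and 5 motifs were searched on both strands in the window of 300 bases from 250 before to 50 after the start. GGAAGT, a motif of PU.1 and other ETS factors of myeloid cells, was present in 3 of the 6 members, at 53 bases before the start of C1qb, 195 bases before that of C1qc, and 190 and 72 bases before that of C5ar1. It was present in 23.8% of all 32851 windows. GGNNTTTCC, an NF-kB motif present in 5.82% of windows, was found 14 bases before the start of C3ar1. GAAANNGAA, an IRF motif present in 8.56% of windows, was found 66 bases before the start of C5ar1, directly next to the nearer GGAAGT match, so that the capitals there run together. TTGCNNAA, a C/EBP motif present in 10.8% of windows, was found 45 bases before the start of C3, and TTCNNNGAA, a STAT motif present in 8.30% of windows, was found in none of the 6 members. A match describes letters only. GGAAGT was thus found both in C1q genes, which rose, and in C5ar1, which was not past the threshold.

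Library totals were 15940328 to 21825096 estimated counts, with 15779 to 19427 genes detected, and a count of 3 corresponded to 0.137 to 0.188 CPM of the unscaled library totals. Such floors cover counting error only. CPM values of genes are relative to library totals scaled with TMM. Icam1, which encodes the sorted protein, had 48.2, 58.4, 42.4 and 122 CPM in CD54-positive replicates 1, 2, 3 and 5, and 18.7, 9.25 and 4.31 CPM in CD54-negative replicates 1, 2 and 3. The library labelled CD54-negative replicate 5 had 138 CPM of Icam1, above every CD54-positive library, so its mRNA goes against its label, although mRNA is an indirect check of a sort on surface protein. Against the label neutrophil, 14 neutrophil markers summed to 1999 to 4921 CPM in CD54-positive libraries and 7880 to 38003 CPM in CD54-negative libraries. Ly6g, a defining neutrophil marker, had 0.0950 to 3.99 CPM in CD54-positive libraries and 25.9 to 41.1 CPM in CD54-negative libraries. The 16 macrophage markers, which hold no C1q gene, summed to 3920 to 9323 CPM in CD54-positive libraries and 663 to 932 CPM in CD54-negative libraries. In these bulk samples, fewer cells of a type and less RNA per cell cannot be told apart.

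The members split into a group that was higher in CD54-positive cells and a group that was not called. With edgeR's quasi-likelihood test and a Benjamini-Hochberg adjusted p under 0.05 over all 13575 genes tested, 4 of the 8 members rose and 0 fell. Over all genes, 1.22% rose and 0.273% fell. The members and the gene lists below were chosen with earlier results known, so setting them beside all genes is no test of a group. Icam1 was not called, with a log2 fold change, CD54-positive over CD54-negative, of 0.67 ± 0.92 (SE, n = 4 against 4, edgeR adjusted p = 0.754). Without the library labelled CD54-negative replicate 5, 4 members rose as well, and 337 of all genes rose and 241 fell, against 166 and 37 with it. At an unadjusted p under 0.05, 5 members were higher and 0 were lower, as were 7.96% and 8.96% of all genes tested. In 5 of 8 members every CD54-positive library was above every CD54-negative library, as in 7.51% of all genes tested. The median log2 fold change, CD54-positive over CD54-negative, was 3.63 over the members and -0.065 over all genes tested.

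**Figure D1:**
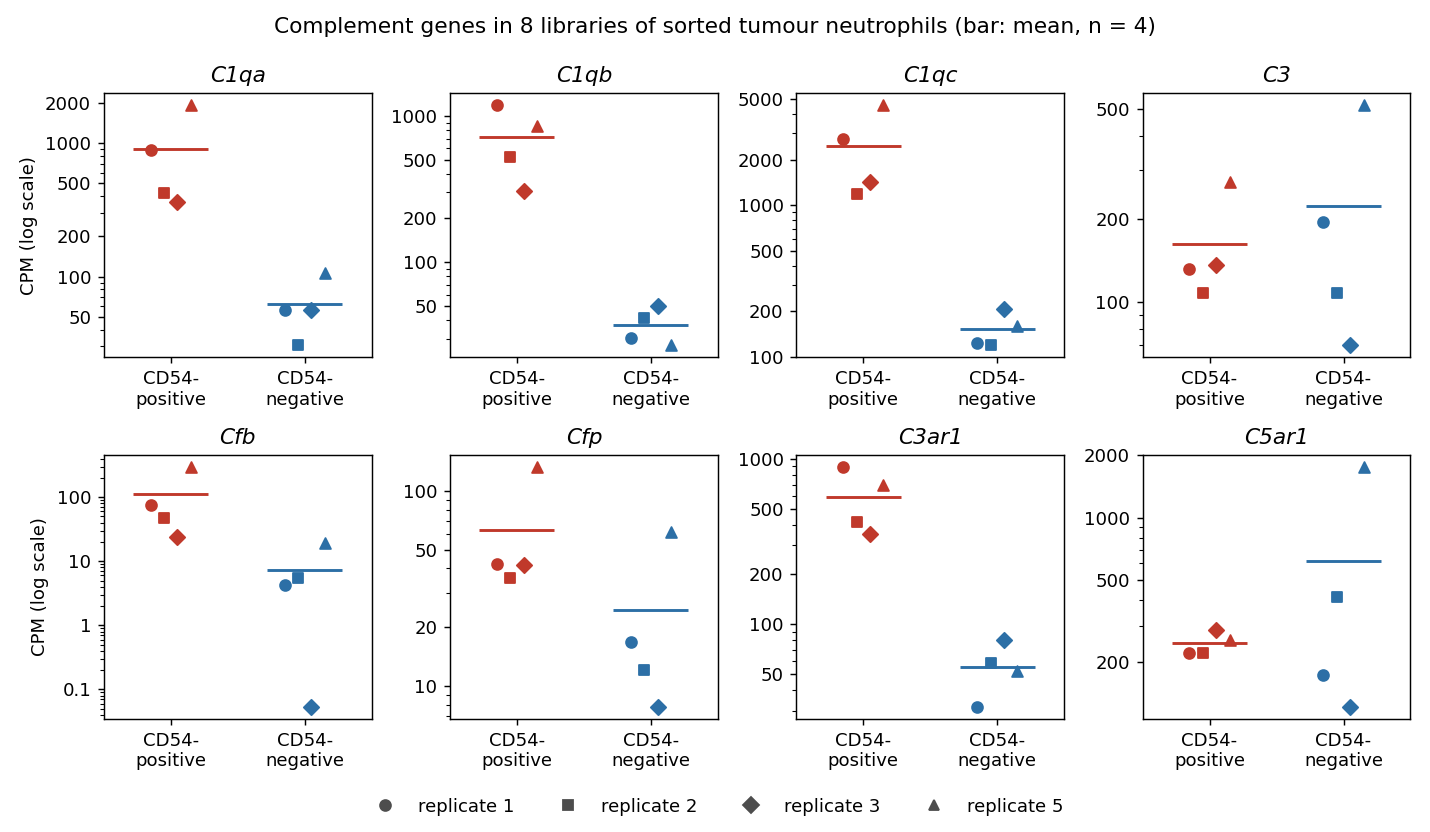
CPM of the 8 complement members (log axes, a scale per gene) in each of 4 CD54-positive and 4 CD54-negative libraries; bars are group means and symbols give the replicate number. C1qa, C1qb, C1qc, C3ar1 and Cfb do not overlap between the groups, whereas C3, Cfp and C5ar1 do, and the library labelled CD54-negative replicate 5 holds the highest C3 and C5ar1.

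The C1q chains were all higher in CD54-positive cells. C1qb, the B chain, had 1183, 526, 309 and 858 CPM in CD54-positive replicates 1, 2, 3 and 5, and 30.2, 41.6, 49.9 and 27.0 CPM in CD54-negative replicates 1, 2, 3 and 5. The groups did not overlap, and the lowest CD54-positive library was 6.19 times the highest CD54-negative one. C1qb rose, with a log2 fold change, CD54-positive over CD54-negative, of 4.27 ± 0.56 (SE, n = 4 against 4; edgeR adjusted p = 0.00992), with the 10th smallest p of all genes tested, and averaged 719 ± 383 CPM in CD54-positive and 37.2 ± 10.5 CPM in CD54-negative libraries (SD, n = 4 each).

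C1qc, the C chain, had 2717, 1180, 1417 and 4565 CPM in CD54-positive replicates 1, 2, 3 and 5, and 125, 119.8, 206 and 159.9 CPM in CD54-negative replicates 1, 2, 3 and 5. All CD54-positive libraries stood above all CD54-negative ones, with replicate 5 highest among the CD54-positive. C1qc rose, with a log2 fold change, CD54-positive over CD54-negative, of 4.02 ± 0.59 (SE, n = 4 against 4; edgeR adjusted p = 0.0124). C1qa, the A chain, had 888, 422, 361 and 1932 CPM in CD54-positive replicates 1, 2, 3 and 5, and 56.0, 30.5, 55.6 and 106 CPM in CD54-negative replicates 1, 2, 3 and 5. Replicate 5 was the highest library in each group for this chain, and the groups did not overlap. C1qa rose, with a log2 fold change, CD54-positive over CD54-negative, of 3.86 ± 0.68 (SE, n = 4 against 4; edgeR adjusted p = 0.0233). Summed, the chains took 0.469, 0.242, 0.243 and 0.775% of all counts in CD54-positive replicates 1, 2, 3 and 5, and 0.0223, 0.0189, 0.0297 and 0.0210% in CD54-negative replicates 1, 2, 3 and 5.

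The calls of these chains depended on single libraries, as did calls over the whole table. Of all genes, 4 rose without CD54-negative replicate 1, 42 without CD54-positive replicate 1 and 73 without CD54-negative replicate 2. With all libraries 166 rose, and 337 without the library labelled CD54-negative replicate 5. Without CD54-negative replicate 1, the log2 fold changes were 4.18 for C1qb, 3.93 for C1qc and 3.81 for C1qa, close to those with it, but edgeR adjusted p was 0.0521, 0.0521 and 0.0791. C1qa also missed the threshold without CD54-positive replicate 1 (3.83, edgeR adjusted p = 0.0654) and without CD54-negative replicate 2 (3.63, edgeR adjusted p = 0.0712). Its log2 fold change was lowest without CD54-positive replicate 5 (3.21, edgeR adjusted p = 0.0443).

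The proportions of the chains were compared per length, as counts divided by gene length and scaled to the same total in every library. C1q protein holds its A, B and C chains in equal numbers. On the per-length scale C1qc made up 53.8 to 66.1% of the summed C1q level in CD54-positive libraries and 51.5 to 64.4% in CD54-negative libraries. C1qa made up 19.7 to 29.4% in CD54-positive and 18.1 to 39.9% in CD54-negative libraries, and C1qb 11.1 to 23.8% in CD54-positive and 8.62 to 20.9% in CD54-negative libraries. The ranges of every chain overlapped between the groups, while the summed per-length level was 4738 to 14184 in CD54-positive and 413 to 647 in CD54-negative libraries. Replicate 5 of each group had the highest share of C1qa and the lowest of C1qb. The ratio of C1qa to C1qb per length was 0.885 to 2.65 in CD54-positive and 0.867 to 4.63 in CD54-negative libraries. Whether the amplification or the gene lengths used shaped these shares was not tested. Shares of mRNA do not give the proportions of the chains in the protein. No test was made of these shares.

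**Figure D2:**
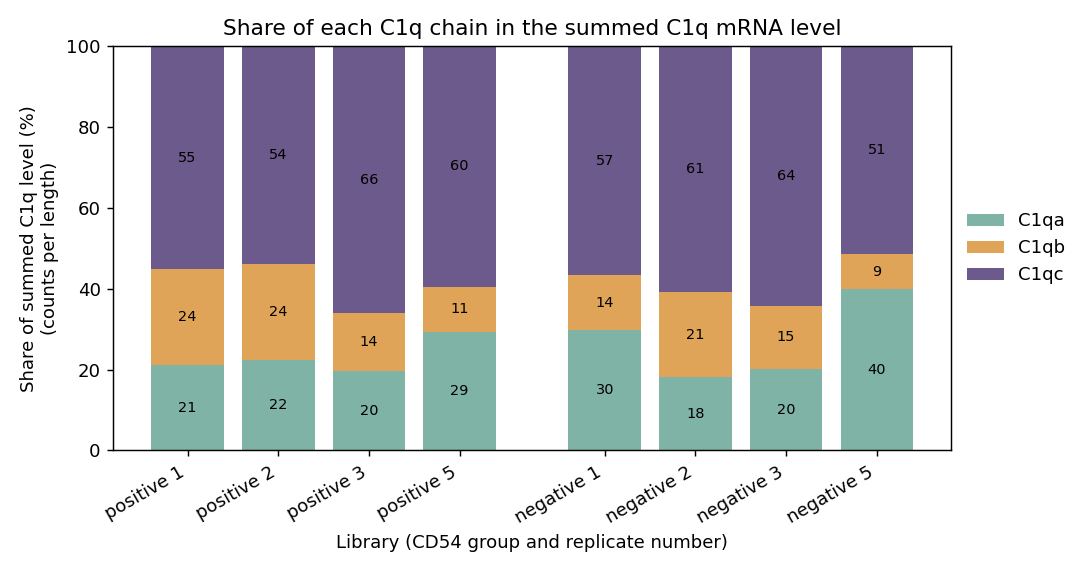
Share of the summed C1q level per length (percent) taken by C1qa, C1qb and C1qc in each library, CD54-positive replicates on the left and CD54-negative replicates on the right. C1qc takes 53.8 to 66.1% in CD54-positive and 51.5 to 64.4% in CD54-negative libraries.

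Of the alternative pathway genes, none was past the threshold with edgeR and group as the only term. Cfb had 75.2, 47.9, 23.8 and 295 CPM in CD54-positive replicates 1, 2, 3 and 5, and 4.20, 5.40, 0.0532 and 19.3 CPM in CD54-negative replicates 1, 2, 3 and 5. The groups did not overlap, but the value of CD54-negative replicate 3 rests on 1 count, below the floor of 3 counts. The log2 fold change was 3.94 ± 1.24 (SE, n = 4 against 4; edgeR adjusted p = 0.144), with an SE above that of each C1q chain. It was 5.08 (edgeR adjusted p = 0.0541) without the library labelled CD54-negative replicate 5, and 2.81 (edgeR adjusted p = 0.3498) without CD54-positive replicate 5. Cfb was called by DESeq2, at 3.81 (DESeq2 adjusted p = 0.00681), and by edgeR with a term for the replicate number. Cfb overlaps the gene Gm20547 on the same strand, and the counts could be split between them. Gm20547 had 0, 0, 202 and 179 counts in CD54-positive replicates 1, 2, 3 and 5, and 29.0, 0, 0 and 2.78 in CD54-negative replicates 1, 2, 3 and 5. With those counts added, an alternative chosen after seeing the data, the log2 fold change of Cfb was 3.91 (edgeR adjusted p = 0.139).

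Cfp, properdin, had 42.0, 35.6, 41.7 and 133 CPM in CD54-positive replicates 1, 2, 3 and 5, and 16.8, 12.1, 7.77 and 61.6 CPM in CD54-negative replicates 1, 2, 3 and 5. It was higher in the CD54-positive library of all 4 same-numbered pairs, but the library labelled CD54-negative replicate 5 was above 3 of the CD54-positive ones. The log2 fold change was 1.36 ± 0.73 (SE, n = 4 against 4; edgeR adjusted p = 0.368). It was 2.35 (edgeR adjusted p = 0.0594) without the library labelled CD54-negative replicate 5, and 0.74 (edgeR adjusted p = 0.695) without CD54-positive replicate 5.

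C3 had 131, 108, 136 and 272 CPM in CD54-positive replicates 1, 2, 3 and 5, and 195, 107.6, 69.7 and 516 CPM in CD54-negative replicates 1, 2, 3 and 5. The groups overlapped, and the highest and the lowest library were both labelled CD54-negative. The log2 fold change was -0.46 ± 0.62 (SE, n = 4 against 4; edgeR adjusted p = 0.751), and it was 0.37 (edgeR adjusted p = 0.714) without the library labelled CD54-negative replicate 5. Without that library the CD54-negative mean was 124 ± 64.3 CPM (SD, n = 3), and with it 222 ± 203 CPM (SD, n = 4), against 162 ± 74.3 CPM in CD54-positive libraries (SD, n = 4). Per length, the ratio of Cfb to C3 was 1.01, 0.780, 0.307 and 1.91 in CD54-positive replicates 1, 2, 3 and 5, and 0.0377, 0.0884, 0.00134 and 0.0658 in CD54-negative replicates 1, 2, 3 and 5. The ranges of this ratio did not overlap between the groups, as was already so for Cfb alone. In CD54-negative replicate 3 it rests on 1 count of Cfb, and counts of the overlapping gene Gm20547 were left out. The ratio of Cfb to C3 was not tested. After the group means were removed, the log2 CPM of C3 and Cfp had a Pearson r of 0.97 over 8 libraries. That of C3 and C1qb was -0.25. Both describe libraries that share groups and depth. C3 and Cfp were each highest in replicate 5 of both groups, and r was not computed without those libraries.

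The anaphylatoxin receptors differed from each other in their levels across the groups. C3ar1 had 893, 418, 352 and 692 CPM in CD54-positive replicates 1, 2, 3 and 5, and 31.6, 58.5, 79.8 and 51.8 CPM in CD54-negative replicates 1, 2, 3 and 5. The groups did not overlap, and the lowest CD54-positive library was 4.41 times the highest CD54-negative one. C3ar1 rose, with a log2 fold change, CD54-positive over CD54-negative, of 3.41 ± 0.51 (SE, n = 4 against 4; edgeR adjusted p = 0.0127), and the call was lost without CD54-negative replicate 1 (3.21, edgeR adjusted p = 0.0521).

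C5ar1 had 220.9, 221.4, 286 and 257 CPM in CD54-positive replicates 1, 2, 3 and 5, and 173, 415, 121.5 and 1753 CPM in CD54-negative replicates 1, 2, 3 and 5. The CD54-positive libraries lay close together, while the CD54-negative ones spread around them. The log2 fold change was -1.32 ± 0.75 (SE, n = 4 against 4; edgeR adjusted p = 0.399), and it was 0.062 (edgeR adjusted p = 0.960) without the library labelled CD54-negative replicate 5. The means were 246 ± 31.3 CPM in CD54-positive libraries (SD, n = 4), and 616 ± 769 CPM in CD54-negative libraries (SD, n = 4) or 236 ± 157 CPM without that library (SD, n = 3). Per length, the ratio of C3ar1 to C5ar1 was 2.18, 1.02, 0.665 and 1.45 in CD54-positive replicates 1, 2, 3 and 5, and 0.0986, 0.0759, 0.354 and 0.0160 in CD54-negative replicates 1, 2, 3 and 5. The ratio of C3a receptor to C5a receptor mRNA was thus higher in every CD54-positive library than in any CD54-negative one. No test was made of this ratio. C5ar2, the other C5a receptor, had 69.8 to 193 CPM in CD54-positive and 58.3 to 332 CPM in CD54-negative libraries (log2 fold change 0.064 ± 0.64 SE, n = 4 against 4; edgeR adjusted p = 0.969) and was named after its values were seen. The highest value was in the library labelled CD54-negative replicate 5, and without it the other CD54-negative libraries averaged 60.2 ± 2.76 CPM (SD, n = 3), below every CD54-positive library, and the log2 fold change was 1.16 (edgeR adjusted p = 0.150).

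Ordered per length within a library, C1qc was the highest member in all 4 CD54-positive libraries, at 2549 to 8442. In CD54-negative libraries C1qc was highest in replicates 1 and 3, at 259 and 416, whereas C5ar1 was highest in replicate 2 and in the library labelled CD54-negative replicate 5, at 295 and 928. Cfb was the lowest member in every CD54-negative library, at 0.0454 to 12.8.

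**Figure D3:**
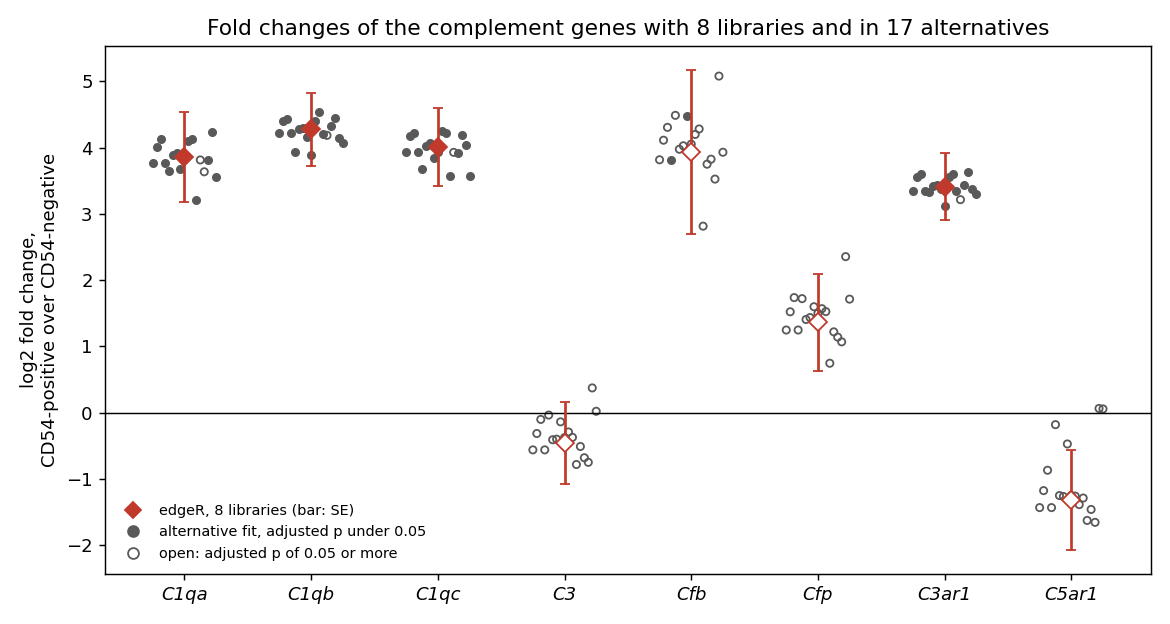
Log2 fold change, CD54-positive over CD54-negative, of each member in the edgeR comparison of all 8 libraries and in 17 alternatives (other scalings, tools and filters, a replicate term, and libraries left out). The C1q chains, C3ar1, Cfb and Cfp stay above 0 in all of them, whereas C3 and C5ar1 lie below 0 except without the library labelled CD54-negative replicate 5, alone or with CD54-positive replicate 5.

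The rest of the pathway was described with a list of 50 other complement genes, of which 39 were in the table and 27 were tested. With edgeR, 0 rose and 0 fell, 4 (C2, Fcna, Cr2 and Itgax) were higher and 1 (Colec12) was lower at an unadjusted p under 0.05. Over all genes tested, 7.96% were higher and 8.96% lower at that threshold. The median log2 fold change was 0.064, against -0.065 over all genes tested. DESeq2 called 1, Fcna, a ficolin that starts the lectin pathway (DESeq2 adjusted p = 0.0172), and limma-voom called 1, Itgax, the alpha chain of complement receptor CR4 (limma adjusted p = 0.0291). The proteases that join C1q in the C1 complex are C1r, which activates C1s, and C1s, which cleaves C4 and C2, and their genes were not among those called. C1ra had 8.08 to 33.0 CPM in CD54-positive and 14.2 to 54.3 CPM in CD54-negative libraries, and C1s1 had 3.47 to 22.3 CPM in CD54-positive and 13.6 to 46.5 CPM in CD54-negative libraries; neither was past the threshold (edgeR adjusted p = 0.658 for C1ra and 0.345 for C1s1), and both, like Hc below, were named after their values were seen.

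The gene with the highest mean CPM in each list of other complement genes was named, where the list had a tested gene. Colec12, a scavenger collectin, had 95.5, 119, 307 and 41.0 CPM in CD54-positive replicates 1, 2, 3 and 5, and 614, 314, 743 and 224 CPM in CD54-negative replicates 1, 2, 3 and 5 (log2 fold change -1.75 ± 0.64 SE, n = 4 against 4; edgeR adjusted p = 0.204). Its groups overlapped. Clu, clusterin, an inhibitor of the terminal complex, had 12.5 to 352 CPM in CD54-positive and 87.2 to 842 CPM in CD54-negative libraries (-1.76 ± 0.88; edgeR adjusted p = 0.337). Markers of fibroblasts, cells that often express clusterin, summed to 718 to 3016 CPM in CD54-positive and 2518 to 4353 CPM in CD54-negative libraries, and their part in these values was not tested. Itgb2, the beta chain of the complement receptors CR3 and CR4 which also bind ICAM1, had 241 to 503 CPM in CD54-positive and 176 to 1403 CPM in CD54-negative libraries (-0.60 ± 0.60; edgeR adjusted p = 0.649), and without the library labelled CD54-negative replicate 5 its log2 fold change was 0.17 (edgeR adjusted p = 0.875). C6 of the terminal pathway had 0.806 to 45.2 CPM in CD54-positive and 0 to 12.7 CPM in CD54-negative libraries (1.97 ± 1.55; edgeR adjusted p = 0.555), or 0.82 with both libraries numbered 5 left out. Hc, which encodes C5, the source of the ligand of C5ar1, was not tested and had at most 0.193 CPM in CD54-positive and 0.717 CPM in CD54-negative libraries.

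**Figure D4:**
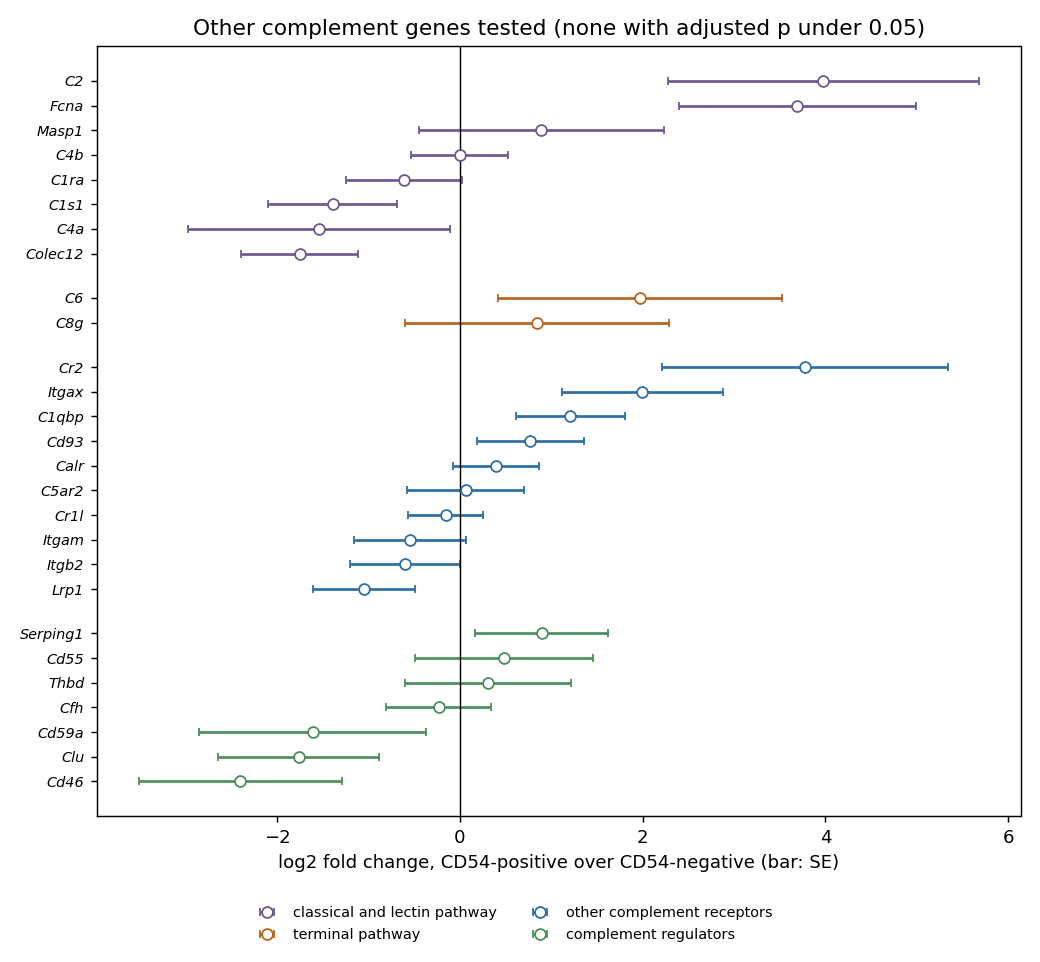
Log2 fold changes, CD54-positive over CD54-negative, with SE, of the 27 other complement genes tested, grouped by list. None is past the threshold with edgeR, and they lie on both sides of 0, 14 above and 13 below.

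The members that rose moved with markers listed for macrophages, dendritic cells and some other leukocytes. Of 15 macrophage markers tested 9 rose and 0 fell with edgeR, with a median log2 fold change of 2.73. Of 9 dendritic cell markers tested 5 rose and 0 fell, with a median of 3.65. Dendritic cell markers summed to 3349 to 6922 CPM in CD54-positive and 237 to 533 CPM in CD54-negative libraries. Most of that sum was the class II genes H2-Aa, H2-Ab1 and H2-Eb1 and Cd74, with CD54-positive means of 1115, 320, 904 and 2166 CPM. The rest of the list averaged 1.24 to 35.4 CPM there, with Flt3 at 2.31, Xcr1 at 5.40 and Clec9a at 1.28 CPM. Zbtb46 averaged 6.74 CPM there and 4.83 CPM in CD54-negative libraries. The 14 T and NK cell markers summed to 82.7 to 394 CPM in CD54-positive and 2.28 to 65.9 CPM in CD54-negative libraries, without overlap. Of 11 tested 1 rose, with a median log2 fold change of 2.93. The 10 B and plasma cell markers summed to 632 to 2430 CPM in CD54-positive and 400 to 855 CPM in CD54-negative libraries. Of 9 tested 0 rose or fell, but 8 had a positive log2 fold change, with a median of 2.39. Of the 10, 9 had the higher mean in CD54-positive libraries. The exception was Xbp1, at 296 CPM there and at 438 of a mean sum of 609 CPM in CD54-negative libraries. Of 9 monocyte markers 3 rose, Ccr2, Cx3cr1 and Ms4a4c, and 1 fell. The 9 summed to 2784 to 5268 CPM in CD54-positive and 7128 to 15442 CPM in CD54-negative libraries. Most of that sum was Fn1 alone. It averaged 2350 of 3978 CPM in CD54-positive and 11297 of 12693 CPM in CD54-negative libraries. Of the 9 markers, 4 had the higher mean in CD54-positive libraries. Of 14 neutrophil markers 0 rose and 6 fell. Adgre1 (F4/80) had 224 to 293 CPM in CD54-positive and 17.2 to 61.1 CPM in CD54-negative libraries, and Cd5l, a marker of some tissue macrophages, was at 0 to 1.01 CPM in CD54-positive and at 0 in CD54-negative libraries. The summed C1q chains equalled 104, 54.3, 48.8 and 78.9% of the macrophage marker sum in CD54-positive replicates 1, 2, 3 and 5, and 31.8, 24.3, 34.7 and 31.4% in CD54-negative replicates 1, 2, 3 and 5. This share did not overlap between the groups. C3ar1 equalled 7.42 to 19.3% of the macrophage sum in CD54-positive and 4.77 to 8.88% in CD54-negative libraries, which overlapped. The part of RNA from these cell types in the results was not tested.

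C3 and C5ar1 stood otherwise to these sums. C3 equalled 2.75 to 3.18% of the macrophage sum in CD54-positive libraries, a narrow range, and 7.76 to 55.3% in CD54-negative libraries. C5ar1 equalled 4.499 to 12.9% of the neutrophil sum in CD54-positive and 1.23 to 4.61% in CD54-negative libraries. The library labelled CD54-negative replicate 5, which had the highest C5ar1, also had the highest neutrophil sum, 38003 CPM. The largest parts of that sum were Csf3r, Il1r2 and Cxcr2, at 9449, 6159 and 4970 CPM. S100a9, Mmp9, Ngp, Ltf and Camp were also highest in this library. Ly6g, S100a8, Retnlg, Mmp8, Cd177 and Lcn2 were each higher in another CD54-negative library, so the neutrophil markers did not rise there as a set. The part of neutrophil RNA in the level of C5ar1 was not tested.

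**Figure D5:**
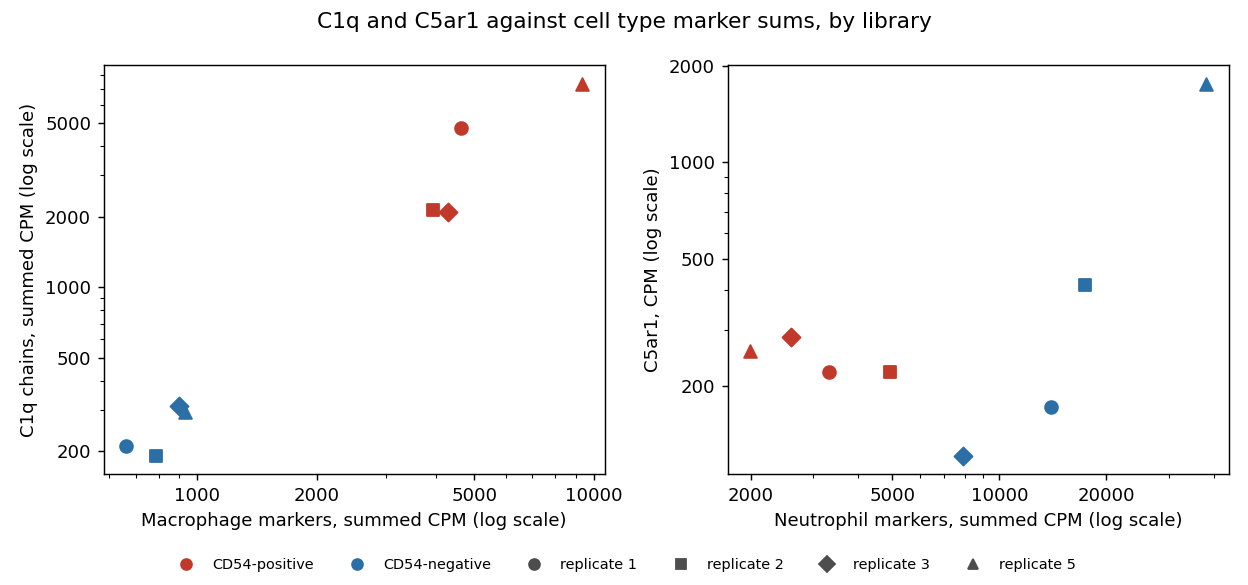
Left, summed CPM of the C1q chains against summed CPM of 16 macrophage markers; right, CPM of C5ar1 against summed CPM of 14 neutrophil markers, one point a library on log axes. CD54-positive libraries lie at 3920 to 9323 CPM of macrophage markers and CD54-negative ones at 663 to 932 CPM; on the right, C5ar1 of the library labelled CD54-negative replicate 5 stands at 1753 CPM and 38003 CPM of neutrophil markers.

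The genes whose pattern was most like that of C1q (the mean of its chains), C3 or C5ar1 were found among 7526 genes with average log2 CPM of 4 or more, by Pearson's r of log2 CPM over the 8 libraries, which share groups and depth. Since the groups stand apart for C1q, r after removing group means is given with it. Most like C1q were Cndp2, a dipeptidase (r = 0.99; 0.90 without group means), Ctsc, cathepsin C (0.99; 0.83), H2-DMa, which loads class II molecules (0.99; 0.84), Ifi30, a lysosomal thiol reductase (0.99; 0.82), and Tent2, a poly(A) polymerase (0.99; 0.94). Of these, 4 rose with edgeR, and Tent2 was not past the threshold (adjusted p = 0.158). Most like C3 were Rnf114, Sdcbp, Chmp4b, Gbp2 and Pstpip1, with r of 0.97 to 0.98. Most like C5ar1 were Map3k8, Agtpbp1, Rsrc2, Sos2 and Btg1, with r of 0.96 to 0.99. None of the 10 genes most like C3 or C5ar1 was past the threshold. C3 and C5ar1 were both highest in the library labelled CD54-negative replicate 5, and r was not computed without it. For Map3k8, Sos2, Btg1, Chmp4b, Gbp2 and Pstpip1, but not the others of the 10, the SD over CD54-negative libraries exceeded the mean. Among members, C1qb and C3ar1 had r of 0.99, or 0.87 without group means.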

How the data were processed

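RNA was measured in 8 libraries. Reads were trimmed with Trim Galore 0.6.6 and quantified with Salmon 1.9.0 against GRCm39 (mm39), tools and build being named per the submitters' processing notes; no source used here gives the annotation or settings. The authors deposited estimated counts per gene, not normalized, with gene lengths. Of 25669 rows, 88 identifiers were repeated with identical values, and 25572 were kept. Counts were rounded, filtered with filterByExpr (13575 genes tested), scaled with TMM and compared by edgeR 4.0.16 in R 4.3.3 (quasi-likelihood, robust, group as the only term), with Benjamini-Hochberg adjustment over all genes. SE is the log2 fold change divided by the square root of F. CPM values were described as mean and SD over libraries.

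The members and lists were chosen with earlier results of these data known. Named genes were the members, the gene of highest mean CPM in each complement list and the 5 most alike in pattern to C1q, C3 and C5ar1. Other complement genes were named where a small count needed them or after their values were seen. Alternatives were DESeq2 1.42.0, limma-voom 3.58.1 with quality weights, scaling by RLE, upper quartiles or library sizes alone, no filter, a filter of 10 CPM in 4 libraries, a term for the replicate number, and fits without each library or without both numbered 5. Promoters are from the RefSeq table on GRCm38.p6, another build than that of the counts.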

Additional observations from a re-analysis of the deposited data

Results flagged for a closer look

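In 4 of 34 groups searched, 1 library stood far from the other 3 of its group. Chance gives about 1 in 20 only for independent, normally spread values. The groups searched share the same 8 libraries, so the rates are not comparable. Cfp had 133 CPM in CD54-positive replicate 5 and 61.6 CPM in the library labelled CD54-negative replicate 5, each far above the rest of its group. The macrophage marker sum was 9323 CPM in CD54-positive replicate 5, and the epithelial marker sum was 68.5 CPM in the library labelled CD54-negative replicate 5.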

How the results depend on the processing

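C1qa, C1qb, C1qc, C3ar1, Cfb and Cfp kept a positive log2 fold change under every alternative run. The number of members that rose was 0 to 4 when 1 library was left out. It was 0 without CD54-negative replicate 1, and 3 without CD54-positive replicate 1 or CD54-negative replicate 2. It was 5 with DESeq2, where Cfb was added. Over the whole table, 42, 56, 71 and 56 genes rose without CD54-positive replicates 1, 2, 3 and 5, against 166 with all libraries. Without CD54-negative replicates 1, 2, 3 and 5 they were 4, 73, 121 and 337. The other complement genes that rose were 1 with DESeq2 and 1 with limma-voom, against 0 with edgeR. C3 ranged from -0.78 to 0.37 and C5ar1 from -1.66 to 0.062 with 1 library left out, turning positive without the library labelled CD54-negative replicate 5. With both libraries numbered 5 left out they were 0.020 and 0.055. Over the whole table, 258, 584 and 460 genes rose with library sizes only, DESeq2 and limma-voom, against 166, and 642 and 349 fell with DESeq2 and limma-voom, 120 without a filter and 61 with the 10 CPM filter, against 37. The median of all genes shifted by 0.13 with upper-quartile scaling, 0.24 with library sizes only and 0.15 with limma-voom. With a replicate block, 5 members rose, Cfb among them (4.48, edgeR adjusted p = 0.0131), and 280 genes rose and 261 fell. Same-numbered libraries deviated together with correlations of -0.13, 0.12, 0.15 and 0.38 for numbers 1, 2, 3 and 5. CD54-positive replicates 2 and 5 and CD54-negative replicates 2, 3 and 5 correlated best with their own number in the other group. The remaining libraries did not, and these values do not settle whether the numbers mark pairs. Differences near the floor of 3 counts, as for Cfb, are limited by depth.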
